A study of Mus musculus with 2 samples.

Results

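Splice junctions were taken from a list made from 2 libraries of mouse duodenum, where the small intestine begins. The junctions described here carry the flags A=0 and C=0 and have at least 5 reads in each of the counts named R1 and R2. Of the 347142 junctions in the list, 2680 met this rule. They were chosen by these measured counts and flags, so their reads, score and ratio of R1 to R2 are given as a description and support nothing. Both libraries came from C57BL/6J mice of 8 weeks, with tissue of male and female littermates pooled, and both formed 1 group, with no treatment or genotype named. The labels give both libraries the same donor entry, so nothing says that they came from separate animals, and there is no contrast of conditions. The list does not state what A and C stand for, nor from which library R1 or R2 came, so R1 and R2 were not tied to a replicate.

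A splice junction joins the exon bases on either side of an intron that has been removed. Most introns start with the letters GT and end with AG. A small class starts with GC and ends with AG, and the minor spliceosome removes a rarer class, some of which start with AT and end with AC. When the same bases stand at both ends of the removed stretch, a read that crosses it can be split at several places, and every choice gives the same spliced sequence. Tandem repeats and near-identical gene copies offer many such choices.

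The sequences of 6 of these junctions show the 2 main patterns. The first 4 lie at introns of GENCODE M21, and the capitals mark the first and last letters of the M21 intron. Slc25a3 encodes the mitochondrial phosphate carrier and Man2c1 an alpha-mannosidase. Dmpk encodes a protein kinase linked to myotonic dystrophy. Ciao2b encodes a factor of iron-sulfur protein assembly.
Slc25a3 donor: gccatcttagGCaagtgagcgcgaccgggc
Slc25a3 acceptor: gccctctgtctcccccgcAGgaggatgttc
Dmpk donor: ggagccgcagGCgagtccctcacctgcttc
Dmpk acceptor: cctctctcttctccttccAGccatcacggg
Man2c1 donor: catcaagcagGCaagggagaatagactggg
Man2c1 acceptor: gtcctgccttcctccaccAGgctgagaggt
Ciao2b donor: gagatcttcgATatccgtcgctgcagggcg
Ciao2b acceptor: ccttttccttcacttggcACatcttatccg
The last 2 lie inside coding exons of genes with repetitive reading frames, Phgr1 (a proline-, histidine- and glycine-rich protein of the gut) and Sprr2a2 (a small proline-rich protein). Here the capitals mark the bases shared by the left and the right end.
Phgr1 left copy: ctggccatggcCCAGGACActgtcctggag
Phgr1 right copy: gacatcaccctCCAGGACAtggtggcccat
Sprr2a2 left copy: ctccccaAGTGTGGCCTGGGCCttgtcgtc
Sprr2a2 right copy: ttccttcAGTGTGGCCTGGGCCgtgtcgtc
The letters were read from the transcripts of GENCODE M21, by counting bases along an exon from the A=1 junctions that bound it, since no genome of the list's build (mm9) was used here. Positions below are those of the list, in mm9.

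The 2680 junctions held 749398 reads, or 2.31% of all junction reads. Reads per junction ran from 10 to 167053, with a median of 33 and quartiles of 19 and 86. The deposited score, which runs from 0 to 1 and came without a description, had a median of 0.027 and a highest value of 0.417. It was 0 in 150 of them (5.6%). Among the 64283 junctions with A=1 and C=1 and the same minimum of reads, the median was 88 reads and the score was 0 in 20.2%. The rule's minimum set the low end: 399 junctions had a lower count of exactly 5, with a median of 14 reads and a median length of 28430 nt. Just outside, 618 junctions had a lower count of exactly 4, with a median of 11 reads and a median length of 16358 nt. Of all 178731 junctions with A=0 and C=0 in the list, 166991 had reads in R1 or R2 alone.

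Intron length had no part in the rule. The median was 7839.5 nt, with quartiles of 274 and 127290.5 nt and a range of 31 to 840182 nt. The 4911 junctions with A=0 and C=1 and the same minimum of reads had a median of 1760 nt, and those with A=1 and C=1 had 908 nt. The median of the 2680 moved with the junctions counted. It was 3430 nt with the minimum of 5 reads on R1 alone and 2214.5 nt on R2 alone, 17942.5 nt without the 3 largest clusters and 31408 nt without the junctions at known introns described below. Both extremes of length were filled. Introns under 70 nt made up 8.10% of the 2680, against 0.448% with A=0 and C=1 and 0.131% with A=1 and C=1. Introns of 100000 nt and over made up 28.6%, against 6.58% and 0.168%. No test was made of these differences, because junctions of one locus are not independent.

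**Figure D1:**
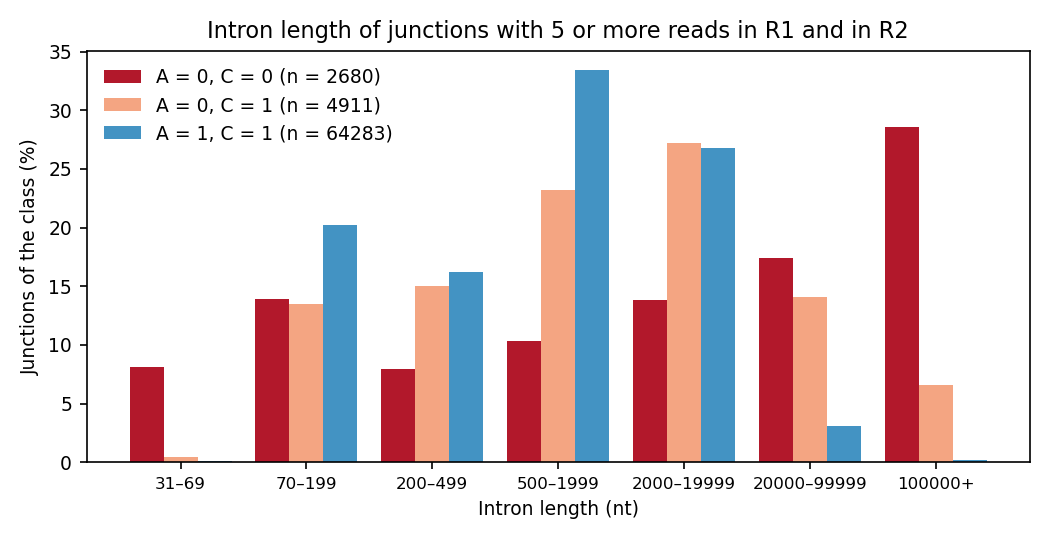
Percent of junctions (y axis) in each range of intron length in nt (x axis), for the 3 classes of flags with at least 5 reads in R1 and in R2. The red bars of the A=0, C=0 junctions hold 8.10% in the shortest range and 28.6% in the longest, where the blue bars of A=1, C=1 junctions hold 0.131% and 0.168%.

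Few of the 2680 ended where an annotated junction ended. An end was shared with an A=1 junction in 76 (2.84%), at the donor in 46 and at the acceptor in 30, and in none at both ends. Among A=0, C=1 junctions the share was 72.7%. These shares need an exact match, and 12% of the 2680 shared an end when matched within 10 nt. Another junction of the list lay within 10 nt at both ends in 1420 (53.0%), against 21.4% of the A=0, C=1 junctions and 14.7% of the A=1, C=1 junctions. In 958 (35.7%) that neighbour had exactly the same length and was moved by the same number of bases at both ends. This held for 0.224% of the A=0, C=1 junctions and for 0.0747% of the A=1, C=1 junctions. It also held for 37 of the 169 junctions (21.9%) with A=1 and C=0. None of the 958 was such a moved copy of an A=1 junction. A junction of the opposite strand within 10 nt was found for 8 of the 2680.

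Of the 958, 816 had at least as many reads as any moved copy beside them, and 142 had fewer. In those 142, the junction had a median of 37.2% of the reads of its most read copy, with quartiles of 12.3% and 67.2%. Beside the junctions with most reads of all, the copies were faint. Slc25a3 had the junction with most reads, of 209 nt at chr10:90586451-90586659 on the minus strand, with 91293 reads in R1 and 75760 in R2. Around it lay 7 junctions of the same length within 10 nt, 3 of them also among the 2680, and together they held 691 reads, or 0.414% of its 167053. The junction with the next most reads, at chr4:121870932-122132563, had 44164 reads in R1 and 38811 in R2. It had 9 such copies with 480 reads (0.578%). For the 12 junctions with most reads, the copies together came to between 0.0224% and 0.842%.

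A part of the junctions lay at known introns. In 335 of the 2680 (12.5%), the junction had the length of an M21 intron of the same gene and lay within 10 nt of it. They held 284939 reads, or 38% of the reads of the 2680. The Slc25a3 junction alone made up 58.6% of these reads, and without it the others held 117886, or 20.2%. In 324 of the 335 the listed position was 1 to 5 nt to the left of the M21 intron on the chromosome, in 8 it was the same and in 3 it was to the right. Of the A=0, C=1 junctions, 1006 had the length of an M21 intron within 10 nt, and 985 of these (97.9%) lay exactly on it. M21 introns were set beside the list by the distance to another A=1 junction of the gene. In the same way, 63084 of 63092 matched A=1, C=1 junctions and 162 of 163 matched A=1, C=0 junctions lay exactly on the M21 intron.

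The size of the displacement differed by strand. On the plus strand, 123 of 196 lay 2 nt to the left and 18 lay 1 nt to the left. On the minus strand, 100 of 139 lay 1 nt to the left and 22 lay 2 nt to the left.

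**Figure D2:**
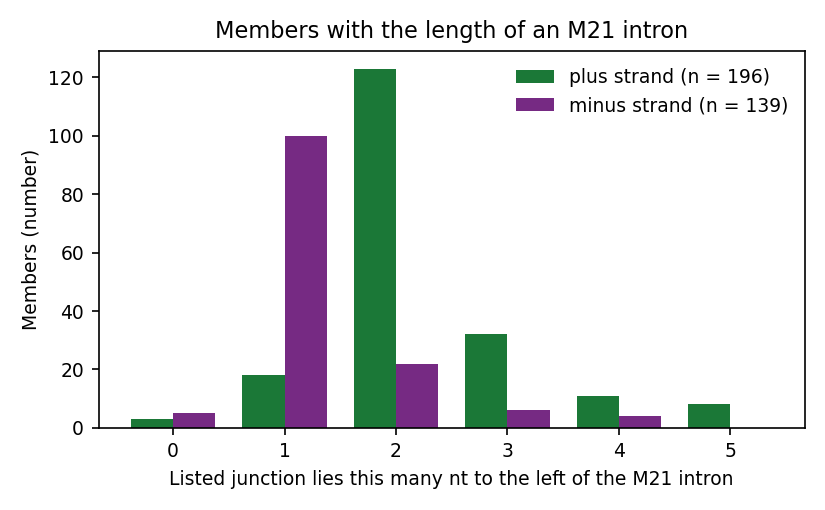
Number of junctions (y axis) by how many nt the listed position lies to the left of an M21 intron of the same length (x axis), for plus-strand (green) and minus-strand (purple) junctions. Most plus-strand junctions stand at 2 nt and most minus-strand junctions at 1 nt, and 3 junctions that lie to the right are not drawn.

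The junctions with most reads at these introns, after that of Slc25a3, were in 4 genes. Sdhd, a membrane subunit of succinate dehydrogenase, had 7040 reads in R1 and 5904 in R2 across a junction of 1510 nt, 1 nt to the left of its M21 intron. Tmbim1, a membrane protein of the Bax inhibitor family, had 6003 and 3448 reads. Spint2, an inhibitor of serine proteases at the epithelial surface, had 3295 and 4781 reads. Myo15b, an unconventional myosin, had 1982 and 4982 reads at 2 nt to the left. For these 4 genes R1 was the higher in Sdhd and Tmbim1 and the lower in Spint2 and Myo15b.

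Further down the list, Sod1, the cytosolic superoxide dismutase, had 3265 reads in R1 and 1423 in R2, at 3 nt to the left of an intron of 1850 nt. Aprt, which salvages adenine, had 1400 and 3020 reads. Pkm, the muscle-type pyruvate kinase, had 1482 and 2192 reads. Khk, the ketohexokinase that phosphorylates fructose, had 434 and 1120 reads. Dmpk had a pair of such junctions, of 171 nt with 675 and 747 reads and of 913 nt with 481 and 254 reads. The 335 junctions lay in 314 genes, so few genes had more than 1.

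The letters at these introns could be read for 37 of the 335, where another transcript keeps the intron as part of an exon. At the M21 position, 29 of the 37 introns had GC and AG, as in Slc25a3, Dmpk and Man2c1 above. Another 3 had AT and AC, in Ciao2b, Xpo7 and Arl16. As listed, 2 of the 37 had GC and AG. Slc25a3 was listed with CA and GG, 1 nt from GC and AG. Man2c1 was listed with CA and AC, and its 2 ends shared 5 bases. Its counts were 670 in R1 and 588 in R2. Ciao2b had 219 and 171 reads and was listed with AT and AT, 2 nt from AT and AC. Gstp1, a glutathione transferase, was listed with GC and AG at the M21 position itself, with 128 reads in R1 and 299 in R2.

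In all, 319 of the 2680 could be placed inside 1 exon of an M21 transcript, with 92 in coding sequence, 57 in the 5' UTR, 91 in the 3' UTR, 26 across a border of the coding sequence and 53 in transcripts with no coding frame. None of the 319 had GT and AG, as listed or at any equivalent position. Of the 410 A=0, C=1 junctions placed in the same way, 386 (94.1%) had GT and AG as listed. Where both exon edges were seen, 107 of 107 had them. The flag C was part of the rule and its meaning is not stated. This difference in letters may therefore be set by the rule, and it is given as a description that supports nothing. All 319 lay as far to the left on the chromosome as their shared bases allowed, including the 295 whose ends shared at least 1 base. Of the 358 A=0, C=1 junctions with at least 1 shared base, 117 lay at the leftmost place. Within reach of the listed position, 45 of the 319 (14.1%) had GC and AG, with 178287 of the 210390 reads. The Slc25a3 junction alone held 167053 of these reads.

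Shared bases were longer at these junctions than at those with C=1. The ends shared a median of 4 bases in the 319 and of 2 in the 410 A=0, C=1 junctions. At least 8 bases were shared in 81 (25.4%), against 12 (2.93%), and at least 15 bases in 42, against 7. Where both exon edges were seen, at least 8 were shared in 3 of 44 (6.82%), against 1 of 107 (0.935%). None of these shared 15. The longest shared run was 39 bases, in Gpatch11. Of the 42 with at least 15 bases, 30 belonged to a single gene, Pigt. It gave 46 of the 319, with a median of 15 shared bases, so junctions of 1 locus also weigh in the 25.4%. In 24 of the 319 no base was shared.

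**Figure D3:**
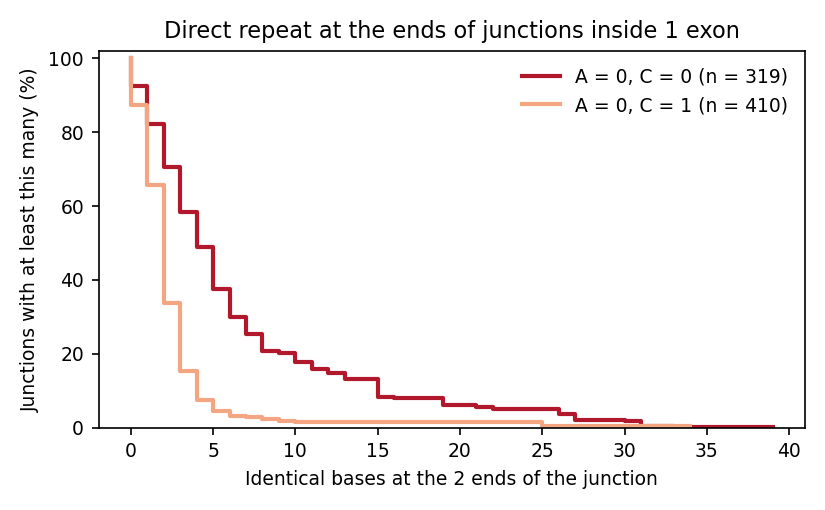
Percent of junctions (y axis) whose 2 ends share at least the number of identical bases on the x axis, for junctions placed inside 1 exon. At 8 bases the red line (A=0, C=0, n = 319) stands at 25.4% and the light line (A=0, C=1, n = 410) at 2.93%, and both fall to near 0 at the right, where few junctions remain. Of the 319, 46 lie in Pigt.

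Among these 319, Pigt, a subunit of the enzyme that attaches glycolipid anchors to proteins, had the most, with 46. All 46 lay within chr2:164333004-164333399, 40 of them in the 3' UTR and 6 across its border with the coding sequence. All 46 lengths were multiples of 32 nt, against 164 of all 2680. A length of 128 nt recurred in 13 of them and of 96 nt in 11. The ends shared a median of 15 bases and up to 31. The most read of the 46, of 128 nt, had 69 reads in R1 and 130 in R2, and all 46 together had 1043 and 1427.

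Phgr1 had 13 junctions inside its coding exon, of 63 to 189 nt, with a median of 8 shared bases. The one printed above, at chr2:118603544-118603636, had 340 reads in R1 and 535 in R2. Its most read junction spanned 3014 nt and had 4708 reads in R1 and 9841 in R2. Sprr2a2 had 7 such junctions, and the printed one, of 54 nt at chr3:92057916-92057969, shared 15 bases and had 706 reads in R1 and 86 in R2. Gramd2 had 4, of 84 to 294 nt, each pair of ends sharing a median of 10 bases. R2 was the higher in both Phgr1 junctions and R1 in that of Sprr2a2.

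Short junctions with many reads also lay where few bases were shared. Lypd8, which encodes a glycoprotein that keeps bacteria away from the gut epithelium, had 5954 reads in R1 and 3077 in R2 across 36 nt at chr11:58203754-58203789, where 1 base was shared. Muc6, a gel-forming mucin of the stomach and of Brunner's glands, had 5158 reads in R1 and 9 in R2 across 207 nt at chr7:148824750-148824956, also with 1 shared base. Igfbp3, which binds insulin-like growth factors, had 12 junctions of 32 to 200 nt with a median of 4 shared bases, all of them packed between positions 7113617 and 7113823 of chromosome 11 and each read 20 to 207 times.

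The 2680 junctions fell into 1235 clusters, joining those within 1000 nt, and 925 (34.5%) stood alone. The 10 clusters with most members held 664 junctions (24.8%) and 221116 reads (29.5%). The first 3 alone held 436 junctions (16.3%). Chromosome 5 had 13.9% of the 2680 and 6.75% of the A=1, C=1 junctions, and chromosome 3 had 9.10% and 3.89%.

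**Figure D4:**
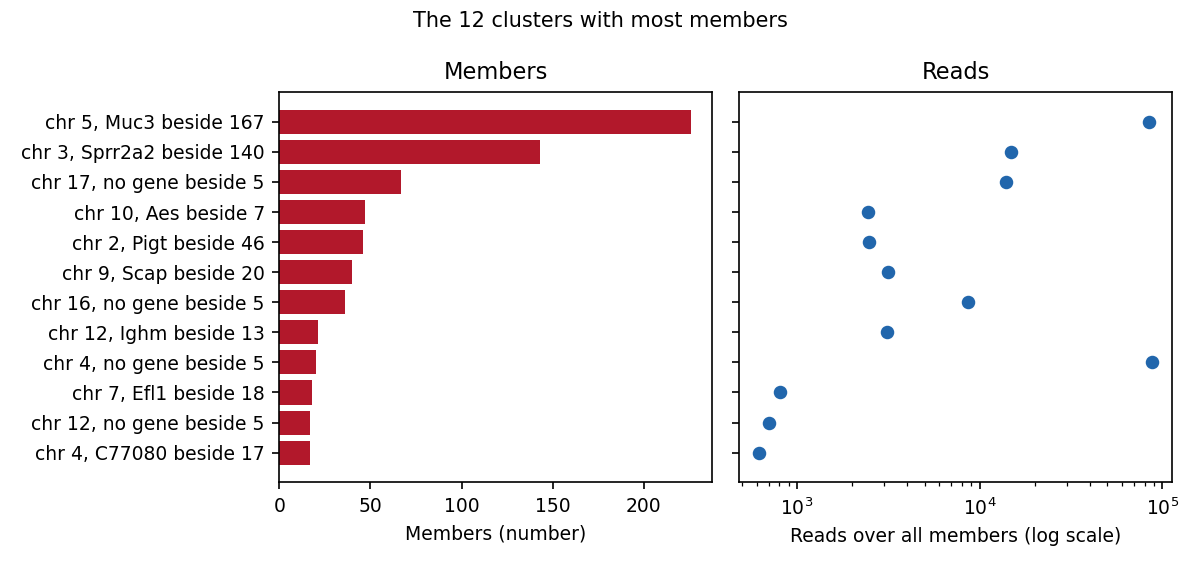
Number of junctions (left, x axis) and their summed reads (right, log x axis) in the 12 clusters with most junctions (y axis), each named by its chromosome and the gene beside at least 5 of them. The Muc3 cluster holds 226 junctions, and the cluster on chromosome 4 without such a gene holds 87758 reads in 20 junctions.

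The largest cluster, at chr5:137444139-137633696, held 226 junctions with 32330 reads in R1 and 51801 in R2. Muc3 is a membrane mucin of the enterocyte brush border whose outer part is built of tandem repeats, and 167 of the 226 lay beside its annotated junctions. All but 1 were on the minus strand. The most read, of 7055 nt at chr5:137625902-137632956, had 1965 reads in R1 and 3551 in R2. The next, of 576 nt, had 925 and 2335. A length of 54 nt recurred in 8 of them, of 198 nt in 6 and of 199 nt in 6, and 104 of the 226 had a moved copy of the same length.

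The next cluster, at chr3:92019878-92190597, held 143 junctions, all on the plus strand, with 9934 reads in R1 and 4843 in R2. Of these, 140 lay beside Sprr2a2, one of several near-identical copies of a gene for the cornified envelope, so the copy named is uncertain. A length of 34815 nt recurred in 10 of them and of 54 nt in 9. Counts recurred too. The junctions of 70 nt and of 34883 nt that start at the same base, 92023100, both had 714 reads in R1 and 181 in R2. Among junctions with at least 50 reads, 71 of 1017 (6.98%) had the same R1 and the same R2 as another of their cluster, and 37 of the 71 were in this cluster and 14 in that of Muc3. The share was 8.22% among A=0, C=1 junctions and 0.0610% among A=1, C=1 junctions.

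The third cluster, at chr17:39856110-39985372, held 67 plus-strand junctions with 8423 reads in R1 and 5483 in R2, and no gene was assigned to it. The signal of the contig at its ends reached 11200. Its most read junction, of 1529 nt, had 4969 reads in R1 and 358 in R2, while the next, of 144 nt, had 274 and 993. A cluster on chromosome 16 had a still higher contig signal, of 68500. It held 36 junctions, with 8599 reads, and the most read, of 63 nt at chr16:11144155-11144217, had 2989 and 1218. At chr12:114666771-115560586, 21 junctions, all on the minus strand, lay in the region of Ighm, the heavy-chain constant gene of immunoglobulin M, 13 of them beside it. They ran from 41557 to 840182 nt and held 2471 reads in R1 and 617 in R2. Of the R1 reads, 1459 came from 1 junction of 69415 nt that had 6 reads in R2.

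Very long junctions made up the other end of the range. The 767 of 100000 nt and over held 189365 reads, and 82975 of these belonged to the junction of 261632 nt on chromosome 4. Srebf2, a transcription factor of sterol synthesis, lay at the left end of a junction of 191262 nt on chromosome 15, and Smdt1, a subunit of the mitochondrial calcium uniporter, at its right end. It had 15377 reads in R1 and 5169 in R2. A junction of 140286 nt that starts beside Slc5a11, a sodium-coupled inositol transporter, had 6737 and 5831. The median of the 767 was 26 reads, and 30% had a moved copy of the same length.

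Different genes lay beside the 2 ends in 184 of the 2680, and the same gene in 1063. Of the 184 pairs, 15 (8.15%) had symbols with the same stem, from families of similar sequence. Near-identical copies can carry the same name here, and a join between them then counts as the same gene. The junction of 34883 nt in the Sprr2a2 cluster, for example, had Sprr2a2 named at both ends. The stem was read from symbols alone, so similar genes with unlike symbols are also missed, and the 15 may be too few. Selenbp2 and Selenbp1, which bind selenium, were joined by 61 reads in R1 and 88 in R2 across 240464 nt. Cyp2c65 and Cyp2c66, cytochromes P450 of the gut, were joined by 26 and 11 reads. H2-D1 and H2-Q10, class I genes of the major histocompatibility complex, were joined by 28 and 26 reads. The other 169 pairs had no common stem, and 105 of them were 100000 nt apart or more, such as Bsg and Abca7 with 53 and 178 reads.

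Contigs, the transcribed stretches of the same deposit, gave a measure of abundance beside each end. A contig of the same strand covered the base outside both ends in 2445 of the 2680 (91.2%) and outside neither in 2.01%. The higher of the 2 signals had a median of 25.3, at the 97.7th percentile of all contigs, against 18.5 for the A=0, C=1 junctions and 7.81 for the A=1, C=1 junctions. The lower signal had a median of 6.40, against 6.53 and 3.71. The 335 junctions at M21 introns had a median of 7.64 at the higher end. Those in the 3 largest clusters had 534. Short junctions stood in high signal, with a median of 143 below 70 nt, and those of 100000 nt and over had 6.31. Reads across a junction and the signal beside it come from the same libraries, so the 2 measures are not independent.

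Gene levels gave a second view. A host gene, from at least 2 matching intron lengths of A=1 junctions that the junction spans, was assigned to 847 (31.6%), and the gene beside an end within 10000 nt to 1846 (68.9%). The host genes numbered 563, and 20 of the 561 with a level (3.57%) were among the 100 genes with the highest mean TPM of both libraries. Of the 10263 genes with an A=1, C=1 junction and a level, 0.741% were, and of the host genes of A=0, C=1 junctions 2.11%. A gene was found for 98% of the A=1, C=1 junctions and for 30.6% of the A=0, C=1 junctions. The genes with an A=1, C=1 junction are therefore not a like set. Among the 1000 highest the order was another, with 15.5% of the 561 host genes, 8.35% of the genes with an A=1, C=1 junction and 24.3% of the host genes of A=0, C=1 junctions. Sprr2a2 alone, ranked 2 with 20183.6 TPM in replicate 1 and 15770 in replicate 2, hosted 92 junctions. Of all junctions with a ranked host, 14.0% were hosted by the top 100 genes, and 3.45% without the 3 largest clusters.

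The kinds of junction differed in this respect. Of the genes at M21 introns, 9.24% were among the 1000 highest, against 8.35% of the genes with an A=1, C=1 junction. Genes with a junction inside 1 exon were of higher level, with 43.1% among the 1000 highest. For the A=0, C=1 junctions inside 1 exon that share was 25.8%. Muc3, with most junctions, was ranked 769, with 86.8 TPM in replicate 1 and 275 in replicate 2. Pigt was ranked 648, Phgr1 37 and Slc25a3 66. Efl1, a factor of ribosome assembly, had 18 junctions at a rank of 11574, with 1.53 and 1.28 TPM.

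Junctions beside groups of abundant genes were counted. Over all genes, 1153 lay beside an end of a junction, and 43346 genes had a level. The share of the other classes of junction beside each group was not computed, so the counts are a description and no excess or lack is read from them. Ribosomal protein genes and pseudogenes were taken by symbols starting with Rpl or Rps, a rule that also takes in kinase genes such as Rps6ka4. Of these 359 genes, 9 had a junction beside them, 10 junctions in all. Rps6ka4 itself had 1 junction, with 1808 reads. The group summed to 46770.8 TPM in replicate 1 and 44783.0 in replicate 2. No junction was assigned to the 39 defensin genes, with 2186.0 and 6534.2 TPM. The assignment names a gene only where at least 2 intron lengths match it and no other gene matches as many. Genes with fewer introns or with near-identical copies can fail this, so nothing is read from the lack of defensins. The assignment needs annotated introns, which mitochondrial genes lack, so it says nothing of them. By position, 2 of the 2680 junctions lay on chromosome M, with 146 reads, and the 37 mitochondrial genes summed to 10431.6 and 10218.5 TPM. Junctions lay beside 4 of the 15 mucin genes, 170 in all and 167 of them beside Muc3. The 17 small proline-rich genes had 140, all beside Sprr2a2.

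R1 and R2 were compared over the whole list, against counting error alone. In an exact binomial test of each junction with at least 10 reads, with Benjamini-Hochberg adjustment and a limit of 2-fold, 38047 of 93835 junctions (40.5%) were called, 23.3% higher in R1 and 17.2% higher in R2. Of the 2680, 750 (28%) were called, 324 higher in R1 and 426 higher in R2. Of all 72043 tested junctions with the same minimum of reads, 22575 (31.3%) were called. The minimum of 5 reads in each count bounds how uneven a chosen junction can be, so nothing is read from the 750. The test compares these 2 libraries and holds no spread between replicates.

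**Figure D5:**
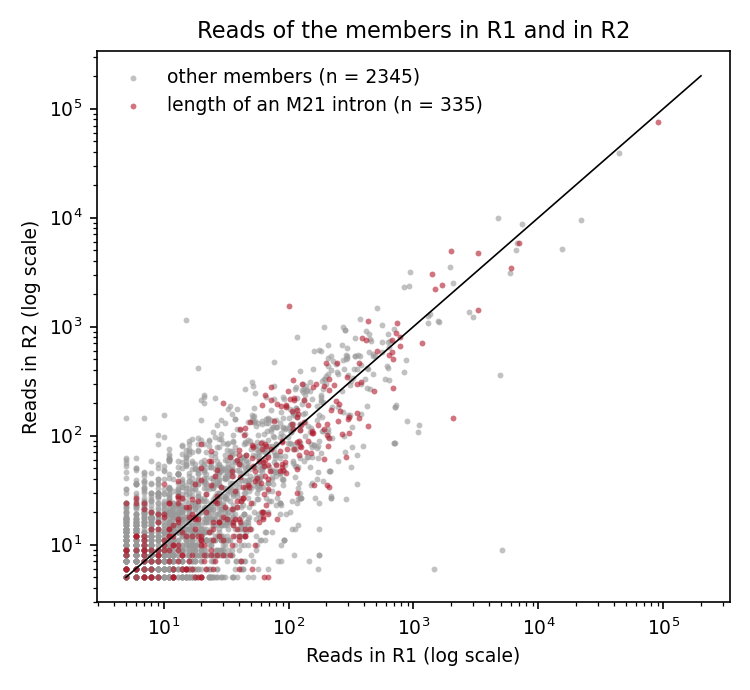
Reads in R1 (x axis, log scale) against reads in R2 (y axis, log scale) for each of the 2680 junctions, with the 335 at M21 introns in red and the line of equal counts in black. The Slc25a3 junction, with 91293 and 75760 reads, stands at the upper right, and single points lie far off the line, such as the Muc6 junction with 5158 and 9 reads.

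The most uneven junctions had both directions. The Muc6 junction had a log2 ratio of R1 to R2, scaled to the totals, of 9. Muc6 had 1175.8 TPM in replicate 1 and 1.77 in replicate 2. A junction of 60 nt in Alpi, the intestinal alkaline phosphatase, had 173 reads in R1 and 6 in R2, a log2 ratio of 4.66, and Alpi had 7153.1 and 1567.7 TPM. Slc5a4a, of the sodium-glucose transporter family, had 100 reads in R1 and 1561 in R2, a log2 ratio of -4.04, with 7.58 and 66.8 TPM. Slc26a11, an anion transporter, lay at the right end of the most uneven junction in the other direction, with 15 and 1139 reads.

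The 2 libraries also differed in the level of cell type markers. Of the 10 enterocyte markers, 8 were higher in replicate 2 and 2, Alpi and Fabp1, in replicate 1, and the list summed to 12476.6 TPM in replicate 1 and 24724.0 in replicate 2. The 14 markers of the exocrine pancreas summed to 88623.3 and 1220.6 TPM, and the 9 markers of stomach and Brunner's glands to 24911.1 and 89.9. All of both lists were higher in replicate 1, with none at 0 in either library. No junction of the 2680 lay beside a pancreas marker, and 1 lay beside a stomach or Brunner's gland marker, which was the Muc6 junction. Most of these markers were low in replicate 2, and the rule asks for at least 5 reads in both R1 and R2. Few of their junctions could meet it, so nothing is read from these counts. In bulk tissue, fewer cells of a type and less RNA per cell cannot be told apart. The part of the difference in marker levels in the ratios of R1 to R2 was not tested.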

How the data were processed

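Polyadenylated RNA of mouse duodenum was measured in 2 libraries. The authors deposited counts of reads per splice junction for both libraries together (mm9), and R1 and R2 add up to them in every entry. The deposited score per junction and the deposited signal per contig came without a description. The deposited expected counts and TPM per gene were made by the authors against mm10 and GENCODE M4, per the text files beside them. Expected counts summed to 44272208 over genes in replicate 1 and 44710137 in replicate 2. No source used here gives the aligner, the junction caller or the annotation behind A.

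Members, lists and rules were chosen with earlier results of these data known. Intron length counts both the first and the last position given. The gene of an A=1 junction came from intron lengths within 50000 nt that match GENCODE M21 on the same chromosome and strand (99.8% of A=1 lengths did). A junction was placed inside an M21 exon by its offset from A=1 junction ends within 6000 nt. No coordinate was carried between builds. These placements, the M21 comparison, the gene beside an end and the repeated counts were added after the data were seen. Clusters, neighbours within 10 nt and contigs were computed in Python 3.11.15 with numpy and pandas. R1 and R2 were compared by an exact two-sided binomial test given their totals over the list, with Benjamini-Hochberg adjustment at 0.05 and a ratio of at least 2-fold, after tests on simulated data. Named junctions are the 10 with most reads, the extremes of length and of the R1 to R2 ratio, the most read of the leading clusters, and the genes with most junctions. The genes at M21 introns and the printed sequences were chosen after their values were seen.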

Additional observations from a re-analysis of the deposited data

How the results depend on the processing

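Of 58 values under alternative settings, 44 moved. A share or median moved when it fell outside the 95% interval of the main value, and a count when it changed by over 1.5 times. The interval takes junctions as independent, which those of one locus are not. It is therefore likely too narrow, and 44 may be too many. The cause was not tested except where fewer junctions or a wider rule set it. A minimum of 10 reads in R1 and in R2 left 1458 junctions, and 20 left 838. At these minimums, 2.54% and 1.91% shared an end with an A=1 junction, 57.3% and 61.9% had a junction within 10 nt at both ends, and 0.0686% and 0.119% had one on the opposite strand. The median length was 6156 and 3669.5 nt, the clusters numbered 735 and 445, the median contig signal was 31.2 and 41.3, and 29.0% and 23.5% had a host gene. With the minimum on R1 alone or on R2 alone, the junctions numbered 9815 to 9840, with 4.98% to 5.59% sharing an end, 41.4% to 43.1% with a near junction, 1.95% with an opposite-strand one, a median length of 2214.5 to 3430 nt, 3173 clusters, a signal of 29.8 to 36.5 and 27.8% to 28.8% with a host gene. Ends matched within 10 nt raised the shared ends to 12%. A near junction was found for 46.7% within 5 nt and 60.7% within 25 nt. One on the opposite strand was found for 0% at the exact place and 0.970% within 25 nt. A host gene was found for 24.4% with 3 intron lengths and 69.9% within 10000 nt.

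Without the 3 largest clusters, an alternative chosen after the data were seen, 49.9% had a near junction, the median length was 17942.5 nt and the signal 17.9. Without the junctions at M21 introns, these were 55.4%, 31408 nt and 39.5. With 1 junction per cluster the median length was 8131 nt. R1 and R2 were called different in 976 of the 2680 with no fold limit and in 768 with the median ratio as scale. Of the 1952 with at least 20 reads, 754 (38.6%) were called. The shares over all junctions at these settings are not given here, so nothing is read from these counts.

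No paired analysis was possible because the report compares no groups. Counts are of reads, not molecules, and a junction near the minimum of 5 reads is poorly measured. Letters were read for 319 of the 2680 only, in exons of genes with annotated introns. Repeats that the genome annotation marks were not analysed here.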

Other observations

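Some clusters had one end in common. On chromosome 9, 40 junctions lay at chr9:110183833-110645996, with 1169 reads in R1 and 1969 in R2, and the contig at the common end had a signal of 56400. The most read of them ran from 110183866 over 451407 nt with 170 reads in R1 and 185 in R2, and others ended beside Scap, a chaperone of sterol-regulated transcription factors, Setd2, a histone methyltransferase, and Kif9, a kinesin. At chr4:128932880-129150620, 17 junctions started beside C77080 and held 257 reads in R1 and 361 in R2. Those to 128949222 and to 129000347 had the same counts, 38 in R1 and 59 in R2, and the same score, 0.417, the highest among the 2680. On chromosome 10, 47 junctions from 32 to 491362 nt spread over 1855020 nt with no more than 231 reads each. Efl1 had 18 plus-strand junctions within 713 nt, with 499 reads in R1 and 304 in R2, at a contig signal of no more than 9.05.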
